A study of Mus musculus with 3 samples.

Results

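Among NK cells sorted from lungs of mice that had received PyMT tumor cells intravenously 14 days before, 543 cells had at least 1 count of Itga1, at least 1 count of Pmepa1 and no count of Gzmc. They made up 15.2% (95% CI 14.0 to 16.4%) of the 3575 lung cells of that library, and they came from 21754 barcodes of the whole series that passed the same filter. That filter asked for between 800 and 5000 detected genes and for no more than 6% of counts from mitochondrial genes. Lung origin was read from the hashtag antibody B0304, at 90% or more of the tag counts of a cell. The comparison cells were the 1841 lung cells of the same library (51.5%) that had no count of either Itga1 or Pmepa1, called double-negative cells here. These 2 classes were defined by the counts of 3 genes, so every difference between them is given as a description and none was tested.

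Live NK1.1+NKp46+ cells had been sorted from lungs and blood of female wild-type mice 9 weeks old, on the C57BL/6 background. The tumor cells were PyMT-B6, a line from the mammary tumors of MMTV-PyMT mice, and 100000 of them were injected 6 h or 14 days before the mice were killed, while naive mice received none. Each of these 3 conditions was 1 droplet library (10x 3′ chemistry) that held lung and blood cells together, so time after injection and library cannot be told apart, and cells are not replicates. Summed UMI counts ranged from 16936897 in the 2069 blood cells of the 14-day library to 35922737 in the 4680 lung cells of the 6 h library, and the 14-day lung cells held 28177180. The labels name the lung without its nodules, so cells of metastatic nodules and of the remaining lung cannot be told apart. At most 16 barcodes were shared between any pair of libraries.

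Itga1 encodes CD49a, the alpha chain of a collagen- and laminin-binding integrin and a surface marker of tissue-resident lymphocytes. TGF-β binds a pair of receptor kinases that phosphorylate SMAD2 and SMAD3, which enter the nucleus with SMAD4 and act on target genes, among them genes of feedback inhibitors such as SMAD7, SKI, SKIL and PMEPA1, a membrane protein that holds back receptor-activated SMADs. In NK cells TGF-β is known to restrain cytotoxicity and maturation and to favour features shared with type 1 innate lymphoid cells (ILC1), CD49a among them. Gzmc, the granzyme C gene used in the rule to set cells aside, is known from innate lymphocytes of this kind.

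Activated SMAD complexes bind the 5 letters CAGAC, read GTCTG on the other strand, and the promoter of the integrin gene that defines these cells is shown with those letters. A RefSeq window (GRCm38.p6) of 250 bases before to 50 bases after the start of the gene was looked up for 13 genes described below, and 7 had an entry. The window of Itga1 lay on the minus strand at chr13:115101915-115102214 and held the letters once, in the reverse reading, with the first base 180 bases before the start. Nt5e, whose product CD73 makes adenosine, had a plus-strand window at chr9:88327359-88327658 with 2 matches, at 69 and 32 bases before the start. Capitals mark the matches.
Itga1 promoter: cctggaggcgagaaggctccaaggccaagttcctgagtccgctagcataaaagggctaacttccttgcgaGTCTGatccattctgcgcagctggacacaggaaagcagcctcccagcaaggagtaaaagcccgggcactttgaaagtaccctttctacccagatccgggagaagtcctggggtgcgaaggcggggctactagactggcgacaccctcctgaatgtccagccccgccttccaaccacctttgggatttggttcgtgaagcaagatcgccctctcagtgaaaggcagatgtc
Nt5e promoter: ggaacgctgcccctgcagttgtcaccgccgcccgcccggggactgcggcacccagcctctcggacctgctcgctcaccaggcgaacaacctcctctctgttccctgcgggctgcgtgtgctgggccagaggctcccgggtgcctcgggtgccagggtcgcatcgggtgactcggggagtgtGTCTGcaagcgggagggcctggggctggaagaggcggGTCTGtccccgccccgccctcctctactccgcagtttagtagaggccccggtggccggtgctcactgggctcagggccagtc
Of the 7 windows, 3 held the letters on either strand, Tnfsf10 being the other, and those of Tgfb1, Ski, Rgs10 and Inpp4b did not. The same letters occurred in 49.6% of all 32851 windows of this length, so their presence does not set these promoters apart, and a match is no evidence of binding.

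The 14-day lung held many more cells meeting the rule than any other tissue or time. In naive lung, 24 of 3676 cells (0.653%, 95% CI 0.419 to 0.970%) met it, and in lung at 6 h 60 of 4680 cells (1.28%, 0.980 to 1.65%) did. Blood of the 14-day library, prepared together with the lung cells and sharing their free RNA, had 4 of 2069 cells (0.193%, 0.0527 to 0.494%). Naive blood had 5 of 4367 cells (0.114%) and blood at 6 h 14 of 2746 (0.510%). All these intervals are exact binomial ones and cover counting error only. The interval of the 14-day lung overlapped with none of the other 5. Cells with more UMIs meet a rule on 1 count more easily, and the 14-day lung cells had a median of 6999 UMIs against 5909.5 in naive and 7005 in 6 h lung. After each cell was thinned to 3000 UMIs, 6.98% of 14-day lung cells met the rule, against 0.195% in naive lung, 0.302% in 6 h lung and 0.0969% in 14-day blood. The order of the 14-day lung above the other samples was unchanged by thinning.

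**Figure D1:**
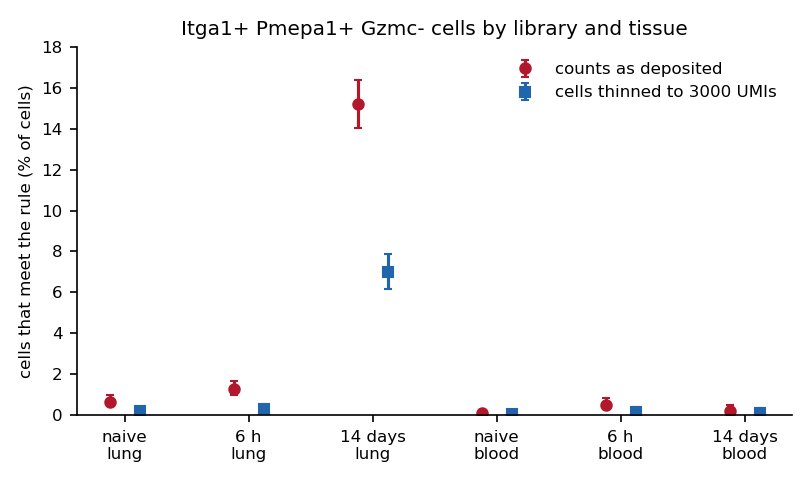
Share of cells (percent, vertical axis) with counts of both Itga1 and Pmepa1 and none of Gzmc in lung and blood of each library, for counts as deposited (circles) and for cells thinned to 3000 UMIs (squares), with 95% exact binomial intervals. The 14-day lung stands at 15.2% and, thinned, at 6.98%, and the 5 other samples lie at or below 1.28%.

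Itga1 and Pmepa1 were both common in the 14-day lung. Itga1 was counted in 853 (23.9%) and Pmepa1 in 1486 (41.6%) of the 14-day lung cells, and 605 cells had both. Pmepa1 was present in 70.9% of cells with Itga1 and in 32.4% of cells without it. Cells with more UMIs have more counts of both genes, and the part of depth in this difference was not tested. The remaining lung cells of the library were 248 with Itga1 alone (6.94%), 881 with Pmepa1 alone (24.6%) and 62 with both genes and Gzmc (1.73%). Blood of the same library differed in the 2 genes, since 6.59% of its thinned cells had Itga1 and 0.776% had Pmepa1, against 14.1% and 27.7% of thinned lung cells. Barcodes with at most 100 counts, which carry free RNA, held 42.7 CPM of Itga1 and 73.7 CPM of Pmepa1 in this library.

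The 543 cells spanned a range of counts rather than a threshold. Itga1 had a median of 2 counts and reached 18, and Pmepa1 had a median of 3 and reached 14. In 61 cells both genes stood at exactly 1 count, the lowest values the rule admits, and in 230 cells both stood at 2 or more. Just outside the rule lay 271 cells with 1 count of Pmepa1 and none of Itga1, 140 cells with 1 count of Itga1 and none of Pmepa1, and 23 cells with both genes and 1 count of Gzmc. Summed over the class, Itga1 (ENSMUSG00000042284, GRCm38 chromosome 13, 114953096 to 115101964) stood at 286 CPM and Pmepa1 (ENSMUSG00000038400, chromosome 2, 173224458 to 173276533) at 377 CPM. CPM are summed counts scaled to a common total for each class, and these values follow from the rule.

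The cells carried the marks of NK cells, 7 of 8 at lower levels than in double-negative cells. Eomes, the transcription factor that sets NK cells apart from ILC1, stood at 237 CPM (95% CI 224 to 252) against 212 CPM (205 to 220.5) in double-negative cells. Ncr1, the gene of the sorted receptor NKp46, stood at 408 CPM against 907 CPM, a log2 ratio of −1.15 (−1.22 to −1.08), and Nkg7, a granule protein gene, at 1329 against 2848 CPM. Summed over the 8 NK markers, the level was 9391 CPM against 20532 CPM, with Gzma the most abundant in both. So all 8 NK markers were detected, 7 with a log2 ratio whose interval lay below 0 (35.1% of all genes measured), 3 of them (Ncr1, Nkg7 and Gzma) at least 2-fold lower, and Eomes with an interval above 0 (25.1%).

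Part of the ILC1 markers stood higher in the class, and all but Il7r and Rora were below 50 CPM in both classes. The 7 ILC1 markers summed to 200.2 CPM in the 543 cells and to 124 CPM in double-negative cells, with Rora, a nuclear receptor, the most abundant (69.8 against 70.8 CPM) and none at 0. Il7r, the receptor chain for IL-7, stood at 59.5 CPM (52.7 to 67.0) against 13.8 CPM (11.9 to 16.0), the chemokine receptor gene Cxcr6 at 9.21 against 1.61 CPM, Cd200r1, an inhibitory receptor, at 12.4 against 4.13 CPM, and Gpr183, an oxysterol receptor, at 27.0 against 10.6 CPM. Rora, Tmem176a (8.99 against 9.71 CPM) and Tmem176b (13.3 CPM in both) differed by less than their counting error. Cells with 3 or more of the 7 markers made up 5.71% of the 543 cells (31 cells) and 1.63% of double-negative cells (30 cells). Without cells of that kind, a choice made after seeing the data, 82 of the 85 genes given below as at least 2-fold higher and 72 of the 75 given as lower were again past 2-fold. Without cells holding a count of any ILC1 or T cell marker, which left 294 cells of the class, 74 and 72 were. Il7r fell below 50 CPM in both cases and was then not measured. T cell markers summed to 69.4 CPM against 24.6 CPM, with Cd3d at 35.8 CPM and Trac at 18.6 CPM. Cd8a, Cd8b1, Cd4 and Cd5 were at 0 counts in the 543 cells, which had been sorted as negative for CD3 and CD5. In double-negative cells these 4 genes had at most 4 counts each. B cell markers summed to 0.214 CPM, endothelial markers to 0.428 CPM, fibroblast markers to 0.214 CPM and myeloid markers to 7.71 CPM (27.1 CPM in double-negative cells). Epithelial and tumor markers summed to 19.1 CPM against 1.38 CPM, of which Cdh1, the E-cadherin gene that some lymphocytes also express, made 14.6 against 0.765 CPM. Epcam stood at 3.00 against 0.535 CPM and Krt18 at 1.28 against 0.0765 CPM, both from 14 counts or fewer, and Krt8 and Scgb1a1 had 0 counts in both classes. The part of ILC1 or other cells in the differences below was not tested.

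Ratios between the 543 cells and double-negative cells are given as log2 ratios of CPM with an exact conditional 95% interval, again covering counting error only. A minimum of 50 CPM in the higher class left 3676 genes. Of these, 85 (2.31%) were at least 2-fold higher and 75 (2.04%) at least 2-fold lower in the 543 cells. The interval of 67 and 54 of these genes lay wholly past 2-fold. The median of all 3676 genes was −0.05. Ribosomal protein genes took 25.1% of the counts of the 543 cells and 19.5% of those of double-negative cells, which lowers every other gene in CPM. With mitochondrial and ribosomal protein genes left out of the totals, the median was 0.07, and 144 genes were at least 2-fold higher and 68 lower. The 543 cells were also deeper, with a median of 7539 UMIs against 6599.

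**Figure D2:**
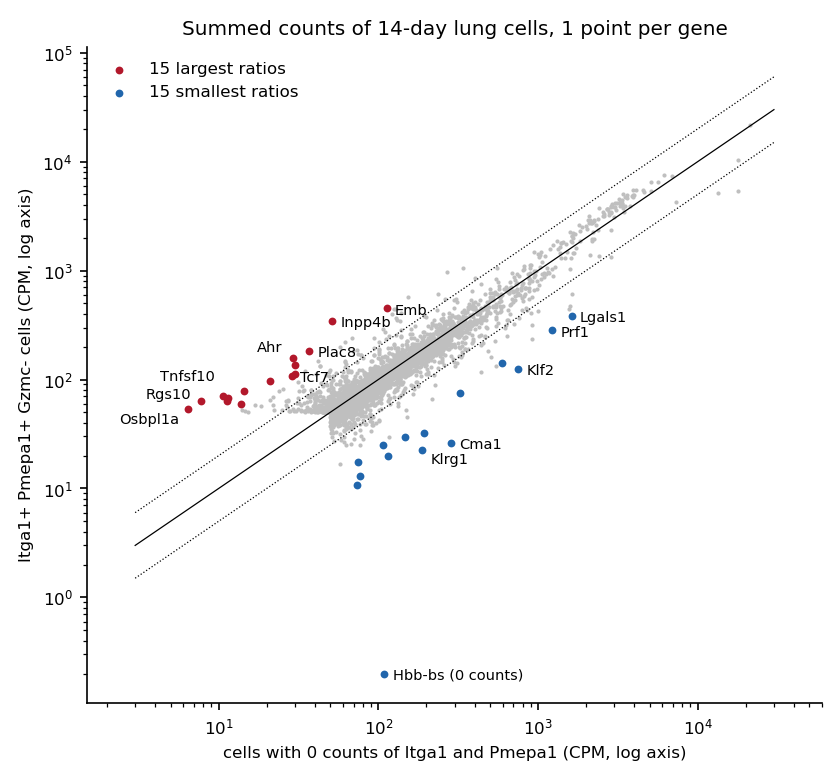
Each point is a gene with at least 50 CPM in 1 of the 2 classes, with its level (CPM, log axes) in double-negative 14-day lung cells on the horizontal and in Itga1+ Pmepa1+ Gzmc- cells on the vertical axis. The solid line marks equal levels, dotted lines a 2-fold difference, and coloured points the 15 largest and 15 smallest ratios, from 8.33-fold higher (Osbpl1a) through 10.9-fold lower (Cma1) to Hbb-bs, which had 0 counts and is drawn at the lower edge.

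TGF-β signalling genes were higher in the 543 cells at the level of the ligand and of the feedback genes. Of the 17 genes of the list, 14 passed 50 CPM, and of these 5 were at least 2-fold higher, 0 at least 2-fold lower and 9 within 2-fold (against 2.31% and 2.04% of all genes). The median log2 ratio of the list was 0.42, and the ratio of its middle gene, Tgif1, a SMAD corepressor gene, had an interval of 0.21 to 0.63. Tgfb1, Smad7 and Ski had been singled out by the study in these samples, so their direction is not independent evidence. The rule itself asked for Pmepa1, a feedback gene of the same pathway, so the levels of the other feedback genes are not independent of it. Against the same double-negative cells, 5 of 13 list genes were at least 2-fold higher with Pmepa1 alone (1.44% of all genes). With Itga1 alone 0 of 12 were (0.741%).

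Tgfb1 (ENSMUSG00000002603, chromosome 7, 25687002 to 25705077), the gene of the ligand TGF-β1, stood at 569.8 CPM (548 to 592) in the 543 cells and at 154 CPM (147 to 161) in double-negative cells. The log2 ratio was 1.89 (1.81 to 1.97), or 3.71-fold. Of the 543 cells, 539 had enough counts to be thinned to 3000 UMIs, and 68.8% (64.7 to 72.7%) of these 539 then had a Tgfb1 count, against 30.7% (28.6 to 32.9%) of double-negative cells and 24.6% (22.8 to 26.5%) of blood cells of the same library. The share in blood is the level that free RNA and expression in blood cells give together.

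Genes of 4 feedback inhibitors were higher as well. Ldlrad4, whose product binds SMAD2 and SMAD3 and is a close relative of PMEPA1, stood at 403 against 122 CPM (log2 ratio 1.72, 1.62 to 1.82). Smad7, the inhibitory SMAD, stood at 350.1 against 132 CPM (1.41, 1.31 to 1.51), and 60.9% of the 539 thinned cells had it against 31.0% of double-negative and 19.2% of blood cells. The corepressor genes Ski and Skil had log2 ratios of 1.40 (1.27 to 1.54) and 1.34 (1.21 to 1.48). All 4 inhibitors were therefore more than 2-fold higher, with intervals wholly past that fold.

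Receptors and SMAD mediators differed less. Tgfbr2, the ligand-binding receptor chain, stood at 213 against 125 CPM (0.77, 0.66 to 0.89), and Tgfbr1, the signalling chain, at 56.7 against 42.8 CPM (0.41). Smad3 was the list member with the lowest ratio, at 143 CPM against 252 CPM (−0.82, −0.94 to −0.70). Smad2 (−0.15) and Smad4 (−0.17) had intervals that reached 0. Itgav, an integrin chain that takes part in the release of active TGF-β, had a ratio of 0.47, and the ubiquitin ligase genes Smurf2 and Nedd4l had ratios of 0.38 and 0.41.

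Among the 543 cells, Ldlrad4 and Tgfb1 were higher where the 2 rule genes had more counts. Ldlrad4 stood at 256 CPM (209.8 to 309) in the 61 cells with 1 count of each gene and at 436 CPM (409.9 to 464) in the 239 cells with 6 or more counts in all. Tgfb1 stood at 495 CPM (430.1 to 568) and 603 CPM (572 to 635) in the same cells, and Smad7 at 309 CPM (258 to 367) and 364 CPM (339 to 389). The intervals did not overlap for Ldlrad4 and Tgfb1 and did for Smad7. Some genes outside the TGF-β list moved too, with intervals that did not overlap. Inpp4b stood at 196 and 352 CPM, Tnfsf10 at 40.7 and 79.3 CPM and Ccl5 at 4721 and 5575 CPM. Ncr1 was lower in the cells with 6 or more counts, at 358 CPM against 474 CPM. Klf2, Prf1 and Rgs10 stood at 117, 279.9 and 62.2 CPM in the cells with 1 count of each and at 116, 290.4 and 65.5 CPM in those with 6 or more, with overlapping intervals. Klf2 and Prf1 were thus at similar levels at the edge of the rule and far inside it. Cells with more counts of the rule genes were deeper, with a median of 8587 UMIs against 6445.

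The genes with the largest ratios had varied functions. Osbpl1a, an oxysterol-binding protein gene, stood at 53.5 CPM (47.1 to 60.6) against 6.42 CPM (5.12 to 7.95), and Rgs10, a regulator of G protein signalling, at 63.6 CPM (56.6 to 71.3) against 7.80 CPM (6.36 to 9.47). Inpp4b (chromosome 8, 81342556 to 82127914), a phosphatase of the PI3K pathway, stood at 345 CPM (329 to 362) against 51.2 CPM (47.4 to 55.2), a 6.75-fold difference. These 3 genes were at least 6-fold higher in counts as deposited. When each cell was thinned to 3000 UMIs and the rule applied again, the log2 ratio of Osbpl1a was 2.47 (3.06 as deposited), that of Rgs10 1.95 (3.03) and that of Inpp4b 1.80 (2.75). With comparison cells weighted to the UMIs per cell of the class, Inpp4b was at 2.05. Tnfsf10, the gene of the death ligand TRAIL, stood at 70.5 against 10.7 CPM (log2 ratio 2.72, or 2.06 after thinning), and 18.9% of the thinned cells had it against 2.70% of double-negative and 3.34% of blood cells. Nt5e, the gene of CD73 whose promoter is shown above, stood at 64.0 against 11.3 CPM (2.50). Pip5k1b, a lipid kinase gene (2.18), Gpr155, a lysosomal membrane protein gene (2.57), Retreg1, a receptor for autophagy of the endoplasmic reticulum (1.92), and 1700017B05Rik (2.21) were among the 15 as well.

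Tissue residency genes were mixed. Of 14 genes in the list, 11 passed 50 CPM, with 3 at least 2-fold higher, 1 at least 2-fold lower and 7 within 2-fold, and a median over the list of 0.71. Ahr, the aryl hydrocarbon receptor, needed by some resident innate lymphocytes, stood at 158 against 29.3 CPM (2.43, 2.25 to 2.61), and Isg20, an exoribonuclease gene, at 77.7 against 14.5 CPM (2.43). Rgs10 was the third of the higher genes. Runx3, a transcription factor of resident lymphocytes (0.86), and Itgb1, whose product pairs with CD49a (0.94, 0.89 to 0.99), were higher by less than 2-fold. Prdm1, the gene of Blimp-1, stood at 42.2 against 101 CPM (−1.26). Itgae, the CD103 chain of resident lymphocytes, stood below 10 CPM in both classes.

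Genes of less differentiated NK cells were higher as a group than in double-negative cells, and their ratios over naive lung are given further below. The list held 12 genes, of which 9 passed 50 CPM. Of these 6 were at least 2-fold higher, 0 lower and 3 within 2-fold, and the median over the list was 1.30. Several of its members had been named by the study from these samples. Emb, the gene of embigin, a partner of lactate transporters, stood at 449.9 CPM (431 to 469.6) against 112 CPM (107 to 118). Tcf7, the gene of the transcription factor TCF-1 of early NK and T cells, stood at 108 against 28.8 CPM (1.90, 1.71 to 2.10), and Ltb, a lymphotoxin gene, at 197 against 57.7 CPM (1.77). Cd27, the TNF receptor family member that marks immature NK cells, stood at 79.9 against 34.0 CPM (1.23, 1.03 to 1.43), and 20.4% of thinned cells had it against 8.70% and, in blood, 11.3%. Plac8 (2.30) and Thy1 (1.37) completed the 6 genes. After thinning, the log2 ratio of Emb was 1.00 in place of 2.00, just short of 2-fold, that of Tcf7 1.13 and that of Plac8 1.42. Ccr2, a receptor for inflammatory chemokines, was at 0.97, just short of 2-fold.

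Genes of mature NK cells were lower throughout. All 11 genes of the list passed 50 CPM, 8 were at least 2-fold lower, 0 higher and 3 within 2-fold, with a median of −1.26. Cma1, a chymase gene (chromosome 14, 55941451 to 55944675), stood at 26.1 CPM (21.7 to 31.2) against 285 CPM (276 to 295), the lowest ratio of any of the 3676 genes with counts in both classes (−3.45). Klrg1, the gene of an inhibitory receptor of terminally differentiated NK cells, stood at 22.7 against 187 CPM (−3.04, −3.34 to −2.76). After thinning, 4.64% of the 539 cells had Klrg1, against 34.9% of double-negative and 40.4% of blood cells. Zeb2, a repressor needed for terminal maturation, stood at 319 against 919 CPM (−1.52), and Ly6c2 at 134 against 548 CPM (−2.03). Itgam, the CD11b gene used to stage NK cells (−0.73), Tbx21, the gene of T-bet (−0.73), and Ikzf3, a zinc finger transcription factor gene (−0.23), were within 2-fold. So Klrg1 and Cma1 differed far more than the genes of CD11b and T-bet.

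**Figure D3:**
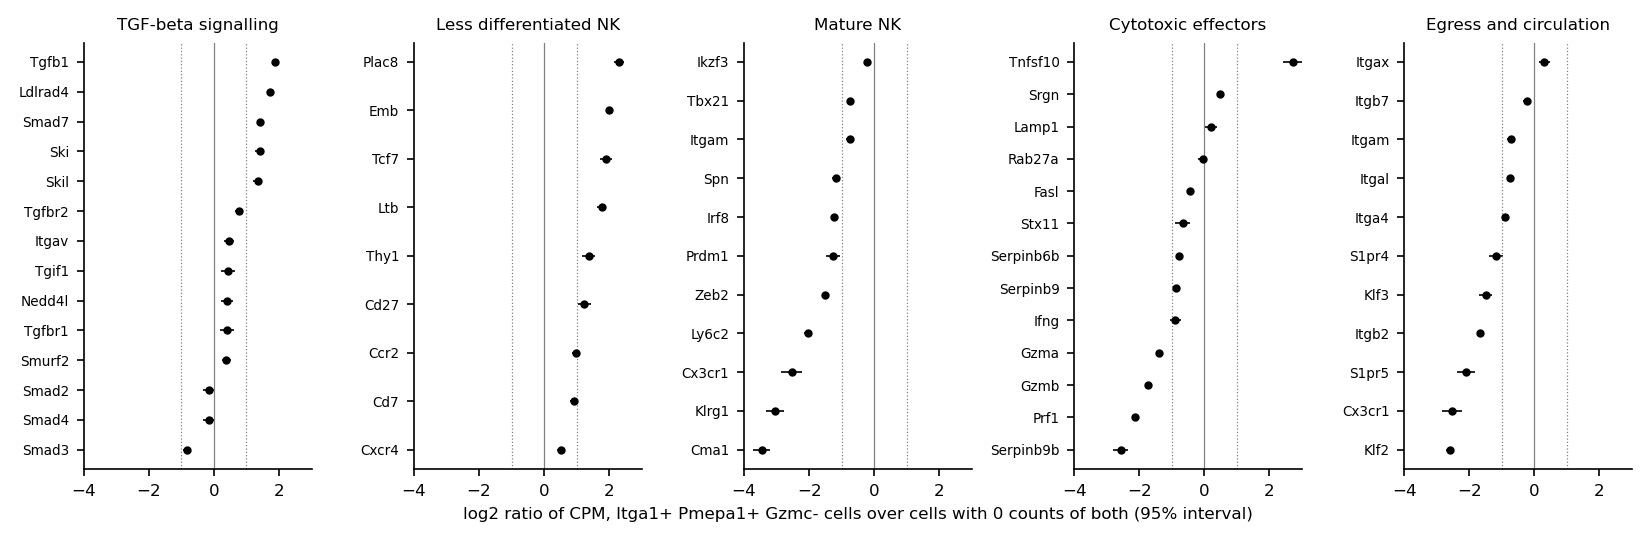
Log2 ratio of CPM in Itga1+ Pmepa1+ Gzmc- cells over double-negative cells (horizontal axis) for the genes of 5 lists that passed 50 CPM, with 95% intervals as bars and dotted lines at 2-fold. Genes of the less differentiated list lie above 0 and those of the mature list below 0, Tgfb1 leads the TGF-β list at 1.89 and Klf2 closes the egress list at −2.59.

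Genes of egress and circulation were lower too. Of 13 genes, 11 passed 50 CPM, with 6 at least 2-fold lower, 0 higher, 5 within 2-fold and a median over the list of −0.90. Klf2 (chromosome 8, 72319033 to 72321656), the transcription factor that keeps lymphocytes in circulation, stood at 125 CPM (115 to 136) against 753 CPM (738 to 768), a 6.01-fold difference. S1pr5, the sphingosine-1-phosphate receptor by which NK cells leave tissue, stood at 24.8 against 106 CPM (−2.10, or −1.26 after thinning), and Cx3cr1, the fractalkine receptor, at 19.9 against 115 CPM (−2.53). Itgb2, the β2 chain of LFA-1 and Mac-1, stood at 159 against 505 CPM (−1.67), while its LFA-1 partner Itgal had a ratio of −0.75. Klf3 (−1.49) and S1pr4 (−1.18) were the other 2. S1pr1 was low in both classes, at 22.9 and 17.4 CPM. Rasgrp2, an activator of the GTPase Rap1 that controls integrins (−2.55, or −1.82 after thinning), and Rap1gap2, which switches Rap1 off (−2.12), were both among the 15 lowest ratios.

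Among cytotoxic effectors, the genes of perforin and of granzymes A and B were lower and that of the death ligand TRAIL higher. Of 21 genes, 13 passed 50 CPM, with 1 at least 2-fold higher (Tnfsf10), 4 at least 2-fold lower and 8 within 2-fold. The median of those 13 was −0.77. With the 4 genes at 0 counts set to 3 counts, that of all 21 was −0.13. Of these 4, 3 had 0 counts in both classes, so their ratios come from the class totals alone. Prf1, the perforin gene (chromosome 10, 61297833 to 61304680), stood at 282 CPM (267 to 298) against 1225 CPM (1206 to 1244), a log2 ratio of −2.12. Gzmb, the gene of granzyme B, stood at 478 against 1589 CPM (−1.73), and Gzma, that of granzyme A, at 5120.3 against 13354 CPM (−1.38). Prf1 was still found in 45.6% of thinned cells against 88.2%, and Gzma in 92.4% against 98.3%. Serpinb9b, a granzyme inhibitor family gene, stood at 32.5 against 193 CPM (−2.57). The granzyme genes Gzmd, Gzme, Gzmf and Gzmg, neighbours of Gzmc in the genome, had 0 counts in the 543 cells, from which Gzmc itself had been kept out by the rule. In double-negative cells 3 of them also had 0 counts and Gzme had 1, so they do not set the classes apart. Gzmk, the granzyme gene of less mature cells, below 50 CPM, stood at 21.6 against 4.59 CPM. Ifng, the interferon-γ gene, stood at 76.7 against 142 CPM (−0.89).

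Of 13 genes of chemokines and their receptors, 8 passed 50 CPM, with 4 at least 2-fold lower, 0 higher and 4 within 2-fold, of which 3 had an interval above 0, where 25.1% of all genes did (median −0.90 over these 8 and −0.06 over the list). Ccl5 stood at 5351 against 17931 CPM (−1.74), Ccl4 at 446 against 1570.3 CPM (−1.82) and Ccl3 at 116 against 436 CPM (−1.90), and the receptor gene Cx3cr1 was the fourth. Xcl1, a chemokine for cross-presenting dendritic cells, stood at 779 CPM (754 to 804) against 561 CPM (548 to 574), a log2 ratio of 0.47. The receptor genes Ccr2 (0.97) and Cxcr4 (0.51) were on the same side. The receptor gene Cxcr3, below 50 CPM, stood at 30.8 against 10.5 CPM.

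In the other receptor groups most genes were within 2-fold. Of 19 NK receptor genes, all past 50 CPM, 17 were within 2-fold and 2 at least 2-fold lower (Ncr1 and Klra9), with a median of −0.29. An interval wholly below 0 was found for 16 of them and one above 0 for 2, against 35.1% and 25.1% of all genes. Klra9 belongs to a family of near-identical genes whose reads the counting may split, so its value is uncertain. Of 15 checkpoint receptor genes, 7 passed 50 CPM, with Nt5e at least 2-fold higher and Entpd1, the gene of CD39, lower (86.9 against 178 CPM), and 5 within 2-fold (median over the list 0.68). Tigit, an inhibitory receptor gene, was at 61.5 against 31.0 CPM (0.99). Lag3 and Ctla4 were below 50 CPM in both classes, and Ctla4 stood at 21.8 against 6.35 CPM. Of 11 costimulatory receptor genes, 7 passed 50 CPM, with Cd27 higher, Il12rb2, a chain of the IL-12 receptor, lower (251 against 636 CPM) and 5 within 2-fold (median 0.19). Of 13 integrin subunit genes, 9 passed 50 CPM, with Itgb2 at least 2-fold lower and 8 within 2-fold. The median was −0.73 over these 9, 6 of which had an interval below 0, and −0.21 over the list. Itgb3, below 50 CPM, stood at 32.8 against 9.48 CPM.

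Interferon, stress, glycolysis and cell cycle genes past 50 CPM included none at least 2-fold higher. All 5 interferon response genes past 50 CPM, of 14, were within 2-fold but with an interval above 0 (25.1% of all genes, median over the list 0.72). Below 50 CPM, Ifit3, an antiviral gene, stood at 36.6 against 8.26 CPM. All 13 dissociation and stress genes past 50 CPM, of 16, were within 2-fold (median 0.01). All 12 glycolysis genes past 50 CPM, of 15, were within 2-fold (median −0.21). Of these 12, 8 had an interval below 0 and 1 above it, against 35.1% and 25.1% of all genes. Of 14 cell cycle genes 5 passed 50 CPM, with Stmn1, a microtubule regulator, lower (16.7 against 57.1 CPM) and 4 within 2-fold (median −0.44). Of these 5, 4 had an interval below 0 and 0 above it. Of the genes past 50 CPM in these 4 lists, Stmn1 alone differed by 2-fold or more.

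The lowest ratios also held genes outside these lists. Lgals1, the gene of galectin-1, stood at 381 against 1624 CPM (−2.09), Emp3, a membrane protein gene, at 143 against 595 CPM (−2.06), and Sgk1, a kinase gene induced by glucocorticoids, at 10.7 against 73.2 CPM (−2.77, or −2.09 after thinning). Borcs7, a subunit of a complex that positions lysosomes, stood at 29.8 against 146 CPM, and Cdc20b at 17.3 against 74.1 CPM. Hbb-bs, a hemoglobin gene, had 0 counts in the 543 cells and 1428 in double-negative cells, of which 1427 lay in 1 cell, so its place rests on that cell.

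The cells with only 1 of the 2 rule genes, and those with Gzmc besides, show how the values are distributed over the lung cells. Cells with Itga1 alone, cells with Pmepa1 alone and the 543 cells are each set against the same double-negative cells, so these ratios share their comparison cells. With Pmepa1 alone, 52 genes (1.44%) were at least 2-fold higher and 53 (1.47%) lower, and with Itga1 alone 27 (0.741%) and 10 (0.274%). Tgfb1 stood at 543 CPM (526 to 559.6) with Pmepa1 alone, close to the 569.8 CPM of cells with both, and at 233 CPM (212 to 254) with Itga1 alone. Klrg1 stood at 29.2 CPM with Pmepa1 alone and at 109 CPM with Itga1 alone, between the 22.7 CPM of the 543 cells and the 187 CPM of double-negative cells. Il7r was highest with Itga1 alone, at 107 CPM (93.3 to 122), and the ILC1 markers summed to 391 CPM there and to 115 CPM with Pmepa1 alone. Endothelial markers summed to 56.3 CPM with Itga1 alone, against 0.153 CPM in double-negative cells, with Cdh5 at 15.3 CPM, Kdr at 0.954 CPM and none of the 5 at 0. Of the 248 cells, 1 had a count of 2 or more of these markers, and its part in the 27 higher genes was not tested. Cells with 3 or more ILC1 markers made up 10.1% of the cells with Itga1 alone and 1.93% of those with Pmepa1 alone. With the 62 Gzmc-bearing cells left aside, Prf1 and Klf2 were lowest in the 543 cells, at 282 and 125 CPM, against 433 and 212 CPM with Pmepa1 alone and 650 and 365 CPM with Itga1 alone. Gzmb had 1198 CPM with Pmepa1 alone and 478 CPM in the 543 cells, for which the absence of Gzmc was a condition.

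The 62 cells with both genes and Gzmc resembled the 543 cells in some genes and not in others. They were deeper, with a median of 13316 UMIs against 7539 in the 543 cells, and the part of depth in the differences was not tested. Of 3589 genes, 30 (0.836%) were at least 2-fold higher than in the 543 cells and 57 (1.59%) lower, but with 62 cells the interval lay past 2-fold for 3 and 4 genes only. Gzmb stood at 822 CPM (761 to 887) there against 478 CPM, and Inpp4b at 548 CPM (498 to 602) against 345 CPM. Klf2 was lower still, at 44.4 CPM (31.1 to 61.4), and Rgs10 was at 22.2 CPM (13.1 to 35.0) against 63.6 CPM. Tgfb1 stood at 494 CPM (447 to 545), slightly below the 543 cells (548 to 592), with intervals that did not overlap. Ldlrad4 stood at 389 CPM (348 to 435), and its interval overlapped with that of the 543 cells.

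**Figure D4:**
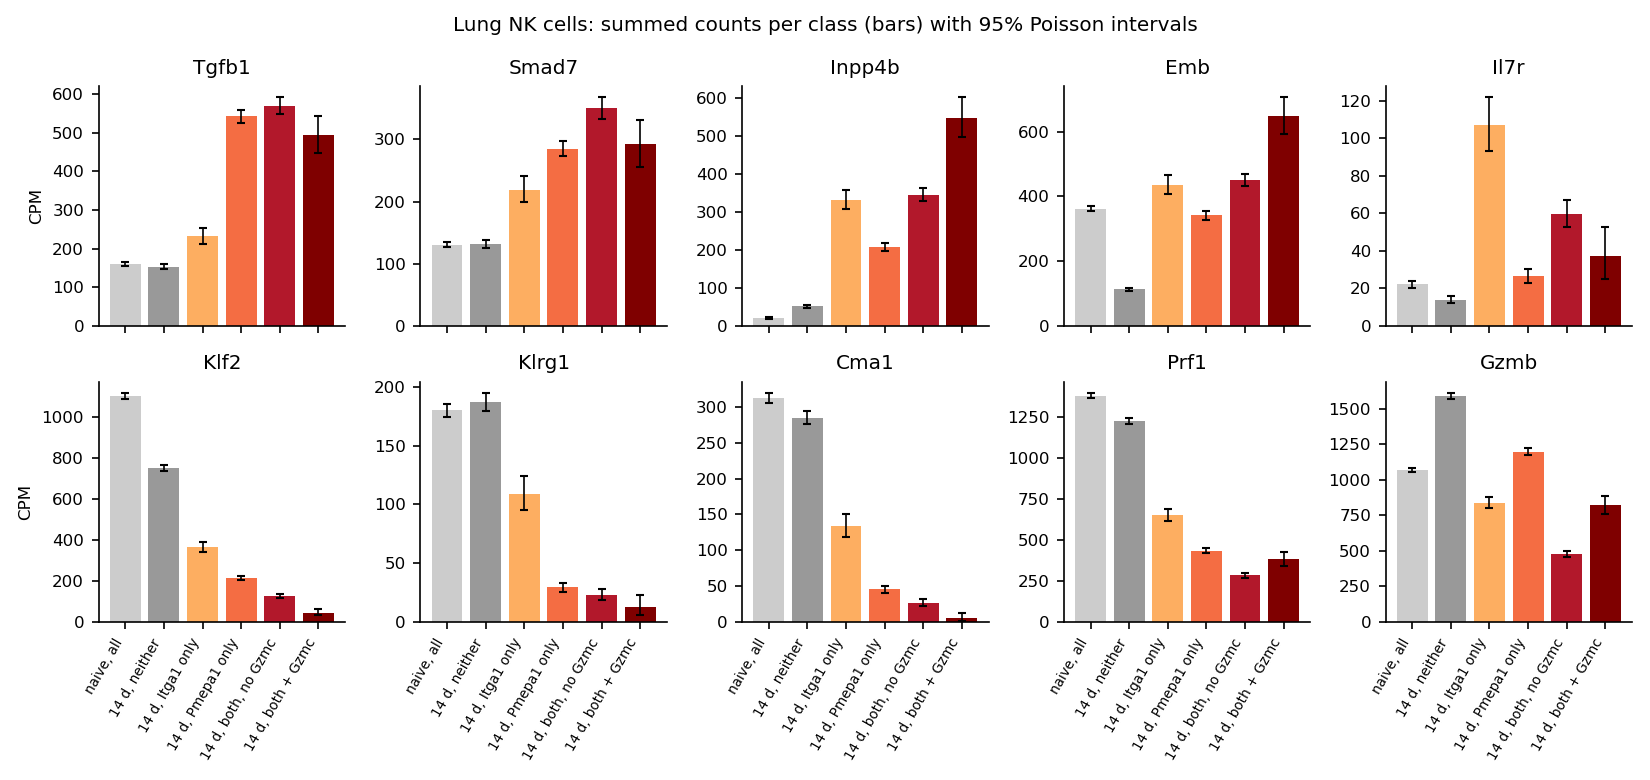
Level of 10 genes (CPM, linear axes from 0) in all naive lung cells and in 5 classes of 14-day lung cells, as bars with 95% exact Poisson intervals. Tgfb1 stands at 569.8 CPM with both genes and at 154 CPM with neither, and Klf2, Klrg1, Cma1 and Prf1 are lower in the cells with Pmepa1 than in double-negative cells.

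Against naive lung the 543 cells differed more than double-negative cells did, and these ratios set different libraries side by side. Relative to all 3676 naive lung cells, 127 of 3996 genes (3.18%) were at least 2-fold higher and 220 (5.51%) lower, with a median of −0.27. For double-negative cells the figures were 14 (0.359%) and 71 (1.82%) of 3905 genes, with a median of −0.21. Tgfb1, Smad7 and Ski had log2 ratios over naive lung of 1.83, 1.42 and 1.47 in the 543 cells and of −0.06, 0.01 and 0.07 in double-negative cells. Over the 14 genes of the TGF-β list past 50 CPM, the median was 0.20 in the 543 cells, with 4 genes at least 2-fold higher and Smad3 at least 2-fold lower (143 against 351 CPM), and in double-negative cells −0.40 over 13 genes, 10 with an interval below 0 (62.2% of all genes) and 0 above (20.3%). Rgs10 (5.41), Isg20 (4.86) and Inpp4b (4.09) stood far above naive lung. Emb differed from these genes. It stood at 362 CPM (355 to 370.2) in naive lung, at 449.9 CPM in the 543 cells and at 112 CPM in double-negative cells, so its 4-fold difference within the 14-day lung lay mostly in the double-negative cells (log2 ratio over naive −1.69, against 0.31). The less differentiated list, which holds Emb, had a median log2 ratio over naive lung of 0.60 in the 543 cells, over 10 genes past 50 CPM. In double-negative cells it was −0.68 over 7 genes, 6 with an interval below 0 and 1 above (62.2% and 20.3% of all genes). Klf2 was below naive lung in both the 543 cells and double-negative cells, at −3.14 and −0.55.

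Set against blood of the same library, 182 of 3792 genes (4.80%) were at least 2-fold higher in the 543 lung cells and 122 (3.22%) lower. Pmepa1 stood at 4.37 CPM in blood, Tgfb1 at 100.1 CPM (95.4 to 105), Smad7 at 69.7 CPM and Emb at 42.6 CPM. Stress genes went with this contrast, Fos at a log2 ratio of 3.93, Dusp1 at 4.05 and Jun at 3.08, and lung tissue but not blood is dissociated before sorting, so the part of dissociation was not tested here. Within the lung the same genes were within 2-fold, as given above.

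The few cells that met the rule in naive and 6 h lung shared part of the pattern. Set against double-negative cells of their own library, 48 of 3985 genes (1.20%) were at least 2-fold higher and 18 (0.452%) lower in the 60 cells at 6 h, and 140 (3.30%) and 140 (3.30%) of 4237 in the 24 naive cells, where most intervals were wide (27 and 4 lay past 2-fold). Of the 15 genes with the largest 14-day ratios, 10 at 6 h and 7 in naive lung had an interval wholly above 0. An interval wholly below it was found for 0 of them. Of the genes past 50 CPM in each library, 11.4% at 6 h and 11.1% in naive lung had an interval wholly above 0. Several of the 15 were below 50 CPM there, Osbpl1a, Rgs10 and Isg20 among them, and are not part of those shares. Of the 15 with the smallest ratios, 10 and 8 had an interval wholly below 0 (7.25% and 7.43% of genes past 50 CPM), but 1 and 3 were at least 2-fold lower. The median of these 15 lower genes was −0.43 at 6 h and −0.76 in naive lung, against −2.53 at 14 days. Prf1 stood at −0.64 (−0.77 to −0.51) at 6 h and −0.84 (−1.07 to −0.61) in naive lung, against −2.12 at 14 days. Klf2 stood at −0.40 and −0.94, against −2.59. Cdc20b in naive lung was an exception, further from 0 than at 14 days. It had 2 counts (10.2 CPM) in the 24 cells, against 89.6 CPM in all naive lung cells. Tgfb1 had ratios of 0.85 (0.60 to 1.08) at 6 h and 0.55 (0.09 to 0.97) in naive lung, against 1.89. Inpp4b (4.14 and 3.75) and Il7r (3.29 and 4.52) were larger than at 14 days. Other leading genes of the 14-day lung were nearly absent. Osbpl1a, Rgs10 and Isg20 had 1, 0 and 2 counts in the 60 cells at 6 h, and 0, 2 and 1 in the 24 naive cells. ILC1 markers summed to 488 CPM in the 60 cells at 6 h and 535 CPM in the 24 naive cells, against 121 and 136 CPM in their double-negative cells and 200.2 CPM in the 543 cells at 14 days, and T cell markers to 162 and 168 CPM. The part of such cells in these ratios was not tested.

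**Figure D5:**
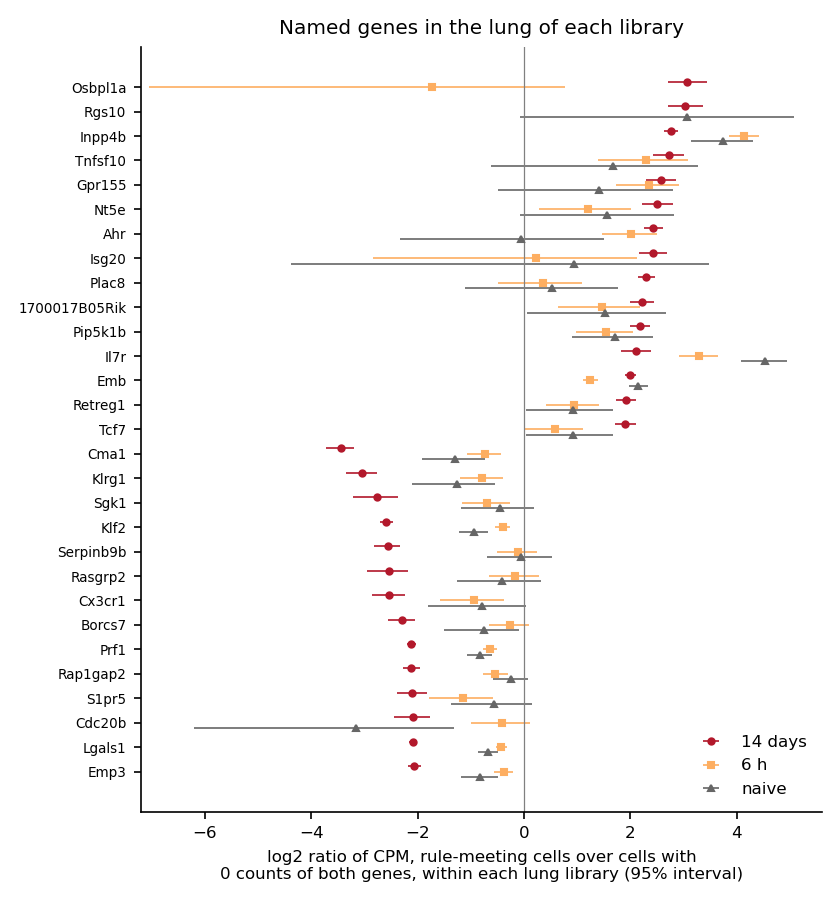
Log2 ratio of CPM in cells meeting the rule over double-negative cells within each lung library (horizontal axis) for the genes with the 15 largest and 15 smallest ratios at 14 days, with 95% intervals; genes with 0 counts in a class are not drawn. At 6 h and in naive lung the median of the 15 lower genes is −0.43 and −0.76, against −2.53 at 14 days. Prf1 lies at −0.64 and −0.84 against −2.12, and Cdc20b in naive lung lies further from 0 than at 14 days.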

How the data were processed

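Sorted lung and blood NK cells of 3 libraries were analysed, 1 per condition. The authors deposited UMI counts per gene and hashtag for every barcode, unnormalized, aligned with Cell Ranger (7.1.0 in the matrix header) to GRCm38.p6; gene positions are from another GENCODE release (M21). B0304 was taken as lung and B0306 as blood, since tissues and tags appear in that sequence in the methods, which pair them nowhere else. Reported filters were applied, cells with both tags were left out by the 90% rule, and no doublet caller was run.

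The cells and the gene lists were chosen with earlier results of these data known. Counts were summed per class and scaled to CPM, genes needed 50 CPM in the higher class, and 0 counts of a gene in a class were replaced by 3. Intervals are exact (Poisson, Clopper-Pearson, conditional binomial for ratios), at 95%, and cover counting error only. No test was made, because a condition had 1 library. Named genes are the 15 largest and 15 smallest ratios, leaving out Itga1, Pmepa1 and Gzmc, and members of the lists (TGF-β signalling, tissue residency, egress, mature and less differentiated NK, cytotoxic effectors, checkpoint, costimulatory and NK receptors, chemokines, integrins, interferon, stress, cell cycle, glycolysis, and markers of NK, ILC1, T, B, myeloid, endothelial, epithelial and tumor cells and fibroblasts). Some genes of the lists are not reported here by name. Thinning to 3000 UMIs left out 38 lung and 6 blood cells of the 14-day library. Scripts were tested on simulated data. Python 3.11.15, numpy 2.4.6, scipy 1.17.1, pandas 2.3.3 and matplotlib 3.10.9 were used.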

Additional observations from a re-analysis of the deposited data

Results flagged for a closer look

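In lung cells at 6 h, outside the comparison within the 14-day lung, 1.28% met the rule (95% CI 0.980 to 1.65%), above the 0.653% (0.419 to 0.970%) of naive lung, and this was singled out because the 6 h share lies above that of the untreated sample. After thinning to 3000 UMIs the shares were 0.302% (0.165 to 0.506%) and 0.195% (0.0784 to 0.401%), with overlapping intervals. Pmepa1 alone was singled out for the same reason, since after thinning it was found in 7.97% (7.21 to 8.79%) of lung cells at 6 h and in 4.87% (4.19 to 5.63%) of naive lung cells, with intervals that did not overlap. Both shares compare 1 library with 1 library, so time and library cannot be told apart.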

How the results depend on the processing

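No paired analysis was made. Each condition has 1 library and no result comes from a test. The share of 14-day lung cells meeting the rule, 15.2%, was 6.98% after thinning to 3000 UMIs, 6.43% with at least 2 counts of each gene, 16.9% without the condition on Gzmc and 13.7% without cells holding any ILC1 or T cell marker. The 85 higher genes of 3676 measured became 144 of 4445 when totals left out ribosomal protein and mitochondrial genes. They became 23 of 3613 against all other 14-day lung cells, which hold the cells with 1 of the 2 genes. With a minimum of 20 CPM they became 146 of 6341. The 75 lower genes became 35 and 114 under the last 2 of these. Under the remaining alternatives, including 1 chosen after seeing the data (without cells with 3 or more ILC1 markers), these values moved by less than 1.5 times or within their interval. The median of the TGF-β list ranged from 0.30 to 0.60. Of 354 values of the 30 named genes under 12 alternatives, 354 kept their direction and 349 stayed past 2-fold. Emb fell short of it after thinning, and Isg20, Plac8, Emb and Tcf7 did so against all other 14-day lung cells. Thinning moved the ratios of Rgs10 (to 1.95), Inpp4b (1.80), Tnfsf10 (2.06), Plac8 (1.42), Emb (1.00), Tcf7 (1.13), Sgk1 (−2.09), Rasgrp2 (−1.82), S1pr5 (−1.26) and Hbb-bs toward 0 by more than 1.5 times. After thinning, 55 of the 85 higher and 52 of the 75 lower genes were again past 2-fold. Set against all other 14-day lung cells, further ratios moved toward 0 by more than 1.5 times. Among them were Osbpl1a (to 1.60), Rgs10 (1.73), Inpp4b (1.27), Tnfsf10 (1.32), Gpr155 (1.32), Nt5e (1.27) and Ahr (1.37). Sgk1, Nt5e or Il7r dropped below 50 CPM under some alternatives and were then not measured. Depth limits genes below about 50 CPM in classes as small as the 24 naive and 62 Gzmc-bearing cells.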

Other observations

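Ribosomal protein genes took 25.1% of the counts of the 543 cells and 19.5% of those of double-negative cells, and 23.2% in cells with Itga1 alone, 25.4% in cells with Pmepa1 alone and 30.2% in cells with both genes and Gzmc. Lyz2, a macrophage and granulocyte gene, stood at 3.00 CPM in the 543 cells and at 17.7 CPM in double-negative cells of the 14-day lung.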
